A study of Mus musculus with 16 samples.

Results

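The FoxO quiescence factors and their targets are 10 mouse genes, taken by name from the 21887 protein-coding genes in the RefSeq gene table (autosomes and sex chromosomes). They are the forkhead factors Foxo1, Foxo3, Foxo4 and Foxo6 and the FoxO targets Pdk4, Fbxo32, Trim63, Sesn1, Sesn3 and Gabarapl1. Each was examined over its gene record plus 10 kb either side for H3K4me3, a histone mark of promoters that are active or poised, and for H3K27me3, which Polycomb complexes place on repressed genes. The cells were muscle stem cells (satellite cells) from skeletal muscle of C57BL/6 mice in an activated state (ASC) and a quiescent state (QSC). Each mark had 2 immunoprecipitated samples per state, with an input for each, 16 samples in all. The labels do not give the age of the mice, how the cells were isolated or activated, or whether replicates came from separate animals. The authors deposited a narrow and a broad peak list for each mark and state, 8 lists in all, and each list serves both replicates of its group. No difference between ASC and QSC below therefore has a replicate check or a test, and read depth is unknown from these lists.

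FoxO factors are transcription factors held in the cytoplasm when insulin or growth factor signalling activates the kinase Akt, and they enter the nucleus and activate their targets when that signalling is low. In satellite cells they are known for maintaining quiescence, and in muscle fibres they drive the atrophy programme of ubiquitin ligases and autophagy genes. Their targets here cover fuel choice, protein breakdown, restraint of mTORC1 and autophagy.

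The promoters that could be matched differ in their content of the dinucleotide CG, which is shown here because it varies along with H3K4me3. RefSeq promoter sequences (build GRCm38.p6, which shares coordinates with mm10; 250 bases before to 50 after the start) were matched for 7 of the 10 genes, with 8 promoters, since Sesn1 has a pair of listed starts. Those of Trim63 (chr4:134314870-134315169, plus strand), Pdk4 (chr6:5496229-5496528, minus strand), Foxo1 (chr3:52268087-52268386, plus strand), Foxo3 (chr10:42276646-42276945, minus strand) and, since their domains differed in opposite directions, the upstream (chr10:41810324-41810623, plus strand) and downstream (chr10:41887189-41887488, plus strand) starts of Sesn1 follow, 5′ to 3′, with every CG in capitals.
Trim63: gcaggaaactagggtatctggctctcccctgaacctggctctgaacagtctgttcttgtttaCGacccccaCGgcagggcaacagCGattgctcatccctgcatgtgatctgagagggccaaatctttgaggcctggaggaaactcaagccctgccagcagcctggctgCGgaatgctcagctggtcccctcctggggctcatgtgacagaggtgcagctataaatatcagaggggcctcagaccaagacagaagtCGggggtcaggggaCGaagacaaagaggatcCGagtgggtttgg
Pdk4: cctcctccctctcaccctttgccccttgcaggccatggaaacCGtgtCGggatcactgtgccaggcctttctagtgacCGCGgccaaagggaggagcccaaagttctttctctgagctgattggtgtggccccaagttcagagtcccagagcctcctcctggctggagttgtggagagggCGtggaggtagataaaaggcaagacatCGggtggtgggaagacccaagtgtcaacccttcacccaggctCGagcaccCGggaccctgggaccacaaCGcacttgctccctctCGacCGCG
Foxo1: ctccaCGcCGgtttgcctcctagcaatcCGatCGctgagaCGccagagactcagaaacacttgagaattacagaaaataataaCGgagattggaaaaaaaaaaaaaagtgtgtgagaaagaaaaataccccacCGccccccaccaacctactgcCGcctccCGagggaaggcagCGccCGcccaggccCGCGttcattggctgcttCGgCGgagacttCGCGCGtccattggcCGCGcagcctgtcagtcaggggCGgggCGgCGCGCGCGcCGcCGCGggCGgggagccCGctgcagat
Foxo3: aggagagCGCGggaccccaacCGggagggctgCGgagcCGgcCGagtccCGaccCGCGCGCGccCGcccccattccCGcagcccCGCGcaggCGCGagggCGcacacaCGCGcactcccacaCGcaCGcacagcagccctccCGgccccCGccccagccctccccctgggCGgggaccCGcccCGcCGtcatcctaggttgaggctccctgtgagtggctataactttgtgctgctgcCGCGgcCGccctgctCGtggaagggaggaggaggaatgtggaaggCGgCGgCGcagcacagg
Sesn1 upstream start: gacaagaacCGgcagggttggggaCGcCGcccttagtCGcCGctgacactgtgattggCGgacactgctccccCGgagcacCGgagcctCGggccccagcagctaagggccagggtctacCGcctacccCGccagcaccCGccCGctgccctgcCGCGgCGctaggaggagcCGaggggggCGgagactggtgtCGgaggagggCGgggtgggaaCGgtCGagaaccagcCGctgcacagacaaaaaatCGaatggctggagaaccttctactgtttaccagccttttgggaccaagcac
Sesn1 downstream start: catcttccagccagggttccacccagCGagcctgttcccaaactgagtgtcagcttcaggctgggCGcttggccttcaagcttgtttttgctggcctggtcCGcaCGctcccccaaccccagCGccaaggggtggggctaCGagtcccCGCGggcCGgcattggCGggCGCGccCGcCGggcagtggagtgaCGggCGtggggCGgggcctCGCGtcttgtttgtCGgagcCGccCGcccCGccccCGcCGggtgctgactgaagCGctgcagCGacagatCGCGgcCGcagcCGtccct

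Trim63 had 7 CG dinucleotides in these 300 bases and a CpG ratio (observed over expected from the base composition) of 0.29. Pdk4 had 12 and a ratio of 0.44. Foxo1 and Foxo3 had 31 and 35, with ratios of 1.10 and 0.83. The other 4 member promoters, those of Gabarapl1, Sesn3 and both starts of Sesn1, had ratios from 0.72 to 0.82. Trim63 thus stood lowest and was the only matched member without H3K4me3. Among all 21263 RefSeq promoters of protein-coding genes, H3K4me3 in ASC was present at 6.11% of the lowest of 4 groups of equal size by CpG ratio, 37.8% of the next group, which holds Trim63 and Pdk4, 87.0% of the third and 96.0% of the highest. For the same groups the shares in QSC were 5.02%, 34.8%, 83.1% and 93.7%.

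**Figure D1:**
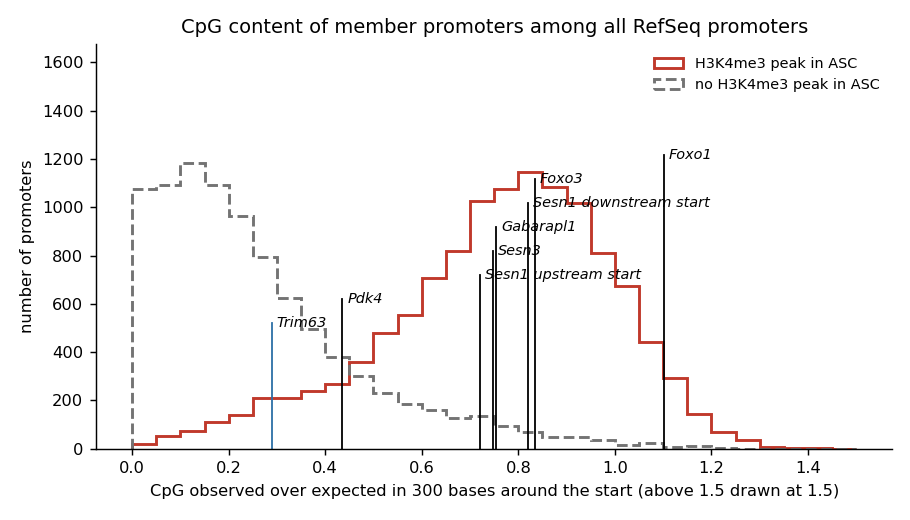
Number of RefSeq promoters by CpG observed over expected, for promoters with (solid) and without (dashed) an H3K4me3 narrow peak in ASC within 1 kb; vertical lines mark the 8 member promoters, black with and blue without the mark. Trim63 lies at 0.29 among the promoters without the mark, and Foxo1 lies highest at 1.10.

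The core of the FoxO recognition element was searched as TGTTTAC on either strand, that is also as GTAAACA. It was found in 639 of the 21263 promoters (3.01%) and in 2 of the 8 member promoters. The matches are shown with 10 bases either side, the match in capitals, at chr4:134314916-134314942 for Trim63 and chr10:41810586-41810612 for the upstream start of Sesn1, both on the plus strand.
Trim63: agtctgttctTGTTTACgacccccacg
Sesn1: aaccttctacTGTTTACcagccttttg

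The Trim63 match begins 194 bases before the start and the Sesn1 match 22 bases after it. A match describes letters and not binding.

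H3K4me3 lay at the start of 9 of the 10 genes in ASC and of the same 9 in QSC, and the remaining gene was Trim63 in both states. A gene was called when a narrow peak overlapped the window of 1 kb either side of a RefSeq start, or of either record end for the 3 members with no listed start (Foxo4, Foxo6 and Fbxo32), whose strand was not known here. By this rule 57.0% of all protein-coding genes were called in ASC and 54.4% in QSC. No member was called in a single state, as were 3.29% of all genes in ASC only and 0.736% in QSC only. The cells carried the mark at all 7 satellite cell markers examined (Pax7, Myf5, Cdh15, Itga7, Vcam1, Sdc4 and Chrna1) in both states. It was at 2 of 5 endothelial markers in ASC and 1 in QSC, at 0 of 5 immune and 0 of 5 mature fibre markers in each state, and at 2 of 4 fibro-adipogenic markers in ASC (Col1a1 and Pdgfra) against 0 in QSC. The part of those other cell types in the values below was not tested.

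**Figure D2:**
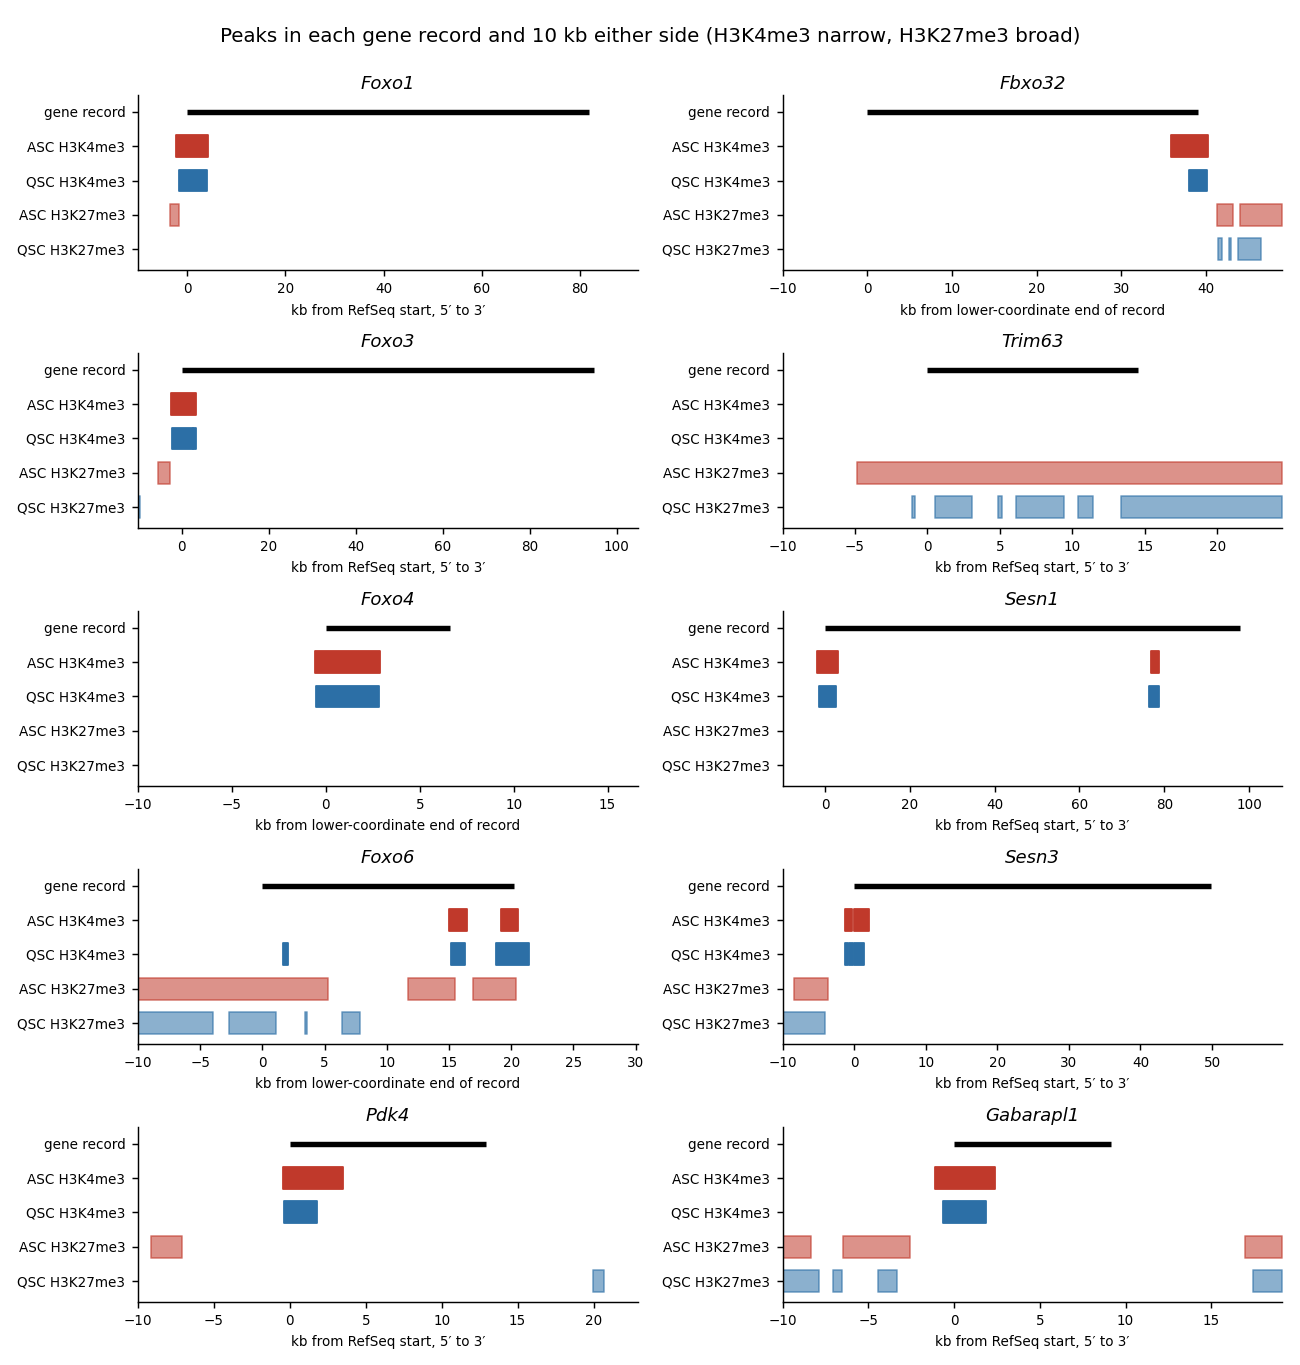
Peaks in each gene record and 10 kb either side, with the record as a black bar, H3K4me3 narrow peaks and H3K27me3 broad peaks, ASC (red) above QSC (blue). Distances are in kb from the RefSeq start in the direction of transcription, or from the lower-coordinate end where no start was listed. H3K4me3 marks 9 starts in both states, and long H3K27me3 peaks lie at Foxo6 and Trim63.

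Foxo1 and Foxo3, the main FoxO factors of satellite cells, carried long H3K4me3 domains in both states that differed little in length between the states. A domain here joins narrow peaks that lie within 1 kb of each other, and the longest one touching the start window was taken. The Foxo1 domain (chromosome 3, record 52268337 to 52350109) measured 6579 bp in ASC and 5558 bp in QSC, a log2 ratio of 0.24. It was longer than 97.6% of the domains of all genes in ASC and 98.4% in QSC. The Foxo3 domain (chromosome 10, record 42181845 to 42276695) measured 5722 bp in ASC and 5564 bp in QSC, a log2 ratio of 0.04, and was longer than 95.6% of domains in ASC and 98.4% in QSC. In QSC it included a separate peak of 611 bp with a fold of 3.70, and without joining of peaks the log2 ratio was 0.25. Both genes were thus near the top of the length order in each state. Fold enrichment over background, the authors' own value per peak and not comparable between lists, was 28.4 at Foxo1 and 33.2 at Foxo3 in the ASC list. In the QSC list it was 24.2 at Foxo1 and 21.0 at Foxo3. Foxo3 had the higher fold in the ASC list and Foxo1 in the QSC list. The Foxo1 peak was in the top 1.41% of the 14354 QSC narrow peaks by fold, and the Foxo3 peak in the top 3.79%. Among the 15869 ASC narrow peaks they ranked lower, Foxo1 in the top 18.9% and Foxo3 in the top 8.98%.

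Foxo4, the X-linked member of the family, had a shorter domain of nearly equal length in the states, 3471 bp in ASC and 3357 bp in QSC (log2 ratio 0.05). Its record spans 101254261 to 101260873 on the X chromosome, and the domain lay at the lower-coordinate end. Its edges in ASC and QSC lay 80 and 34 bp apart. The strongest peak had a fold of 15.9 in the ASC list and 10.2 in the QSC list, near the middle of each (top 50.8% in ASC and top 50.4% in QSC). The records of Gm614 and Il2rg begin 500 and 3512 bp beyond the other end, inside the locus window.

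Foxo6, a FoxO factor best known from brain, was the only member whose domain was shorter in ASC. The domain at the higher-coordinate end of its record (chromosome 4, 120267078 to 120287261) measured 1310 bp in ASC and 2639 bp in QSC, a log2 ratio of -1.01. Of 11755 genes with a domain in both states, 0.578% were shorter in ASC by a log2 ratio of -1 or beyond. The ASC domain (120286274 to 120287583) lay within the QSC domain (120285834 to 120288472) at both edges. A further peak inside the record, of 1442 bp in ASC and 1146 bp in QSC, was present in both states. With peaks joined within 3 kb it became part of the domain, and the log2 ratio was -0.19. Another peak, of 442 bp with a fold of 4.35 (120268709 to 120269150), was in the QSC narrow list only. It lay 1631 bp from the lower-coordinate end, outside the start window, and both broad lists held a peak over it.

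Pdk4, the kinase that shuts off pyruvate dehydrogenase and so turns cells to fatty acid oxidation, had a longer domain in activated cells. It measured 3952 bp in ASC and 2149 bp in QSC (chromosome 6, record 5483351 to 5496278). Its log2 ratio of 0.88 exceeded 79.4% of all genes with a domain in both states. The added length lay on the gene side. The domain reached 3503 bp past the start in ASC and 1762 bp in QSC, while upstream it reached 448 bp in ASC and 386 bp in QSC. Its fold was 17.6 in the ASC list, in the middle of that list, and 6.53 in the QSC list, which was the lowest among the strongest peaks of the 9 marked members.

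Fbxo32, which encodes the muscle ubiquitin ligase atrogin-1, had the largest ratio of the members. Its domain at the higher-coordinate end of the record (chromosome 15, 58175879 to 58214892) measured 4342 bp in ASC and 2125 bp in QSC, a log2 ratio of 1.03. A log2 ratio of 1 or more was found at 13.6% of all genes with a domain in both states. The edge inside the record lay 2112 bp further in for ASC than for QSC, and the outer edge 105 bp further out. Pdk4 and Fbxo32 had the shortest domains of the 9 in QSC and were in the middle of the order in ASC.

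The sestrins, which restrain mTORC1, and the autophagy gene Gabarapl1 had ratios between those of Foxo1 and Pdk4. Sesn3 (chromosome 9, record 14276301 to 14326134) had 3366 bp in ASC and 2576 bp in QSC (log2 ratio 0.39), and reached 811 bp further on the gene side in ASC. Its log2 ratio was 0.67 without joining of peaks and -0.28 with equal covered bases in the lists. Gabarapl1 (chromosome 6, record 129533192 to 129542331), whose product joins the autophagosome membrane, had 3476 bp in ASC and 2536 bp in QSC (log2 ratio 0.45), and reached 462 bp further upstream and 478 bp further downstream in ASC. With peaks joined within 1 kb, the ratios of Sesn3, Gabarapl1 and Sesn1 (0.31) were below 0.54, the median over all genes with a domain in both states.

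Sesn1 (chromosome 10, record 41810574 to 41908436) has listed starts at 41810574 and 41887439, and the domains there differed in opposite directions. At the upstream start the domain measured 4966 bp in ASC and 4008 bp in QSC. At the downstream start it measured 1809 bp in ASC and 2288 bp in QSC, a log2 ratio of -0.34. The order of fold was not the same in the lists. The upstream peak had the higher fold in ASC, 15.9 against 13.0 downstream, and the lower fold in QSC, 11.4 against 15.5 downstream. The record of Cep57l1 ends 706 bp from the upstream start, inside the domain in both states, so that domain covers an end of both genes.

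The 8 members with a longer domain in ASC stand beside 90.8% of all genes with a domain in both states, so the direction is that of the background. The median log2 ratio was 0.31 over the 9 marked members, 0.04 over the 4 FoxO factors and 0.45 over the 5 marked targets, against 0.54 over 11755 genes. The median domain length of all genes with a domain was 2655 bp in ASC and 1809 bp in QSC. Over the starts of the RefSeq table with a domain in both states, the domain reached a median of 552 bp further downstream and 232 bp further upstream in ASC. The bases covered by H3K4me3 over the whole locus gave a median log2 ratio of 0.24 for members, and Fbxo32 alone reached 1, as did 12.8% of all genes with the mark in both states. With the broad H3K4me3 lists, which differ far more in size, the log2 ratio of domain length was -0.38 at Foxo1, -0.47 at Foxo3 and -0.35 at Foxo4. It was -0.89 at Foxo6, 0.84 at Pdk4, 0.74 at Fbxo32, 0.17 at Sesn3, 0.15 at Sesn1 and 0.03 at Gabarapl1. The median over members was 0.030. The coverage values were also turned by those lists, to -0.45 for the median and -0.23 for Fbxo32.

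**Figure D3:**
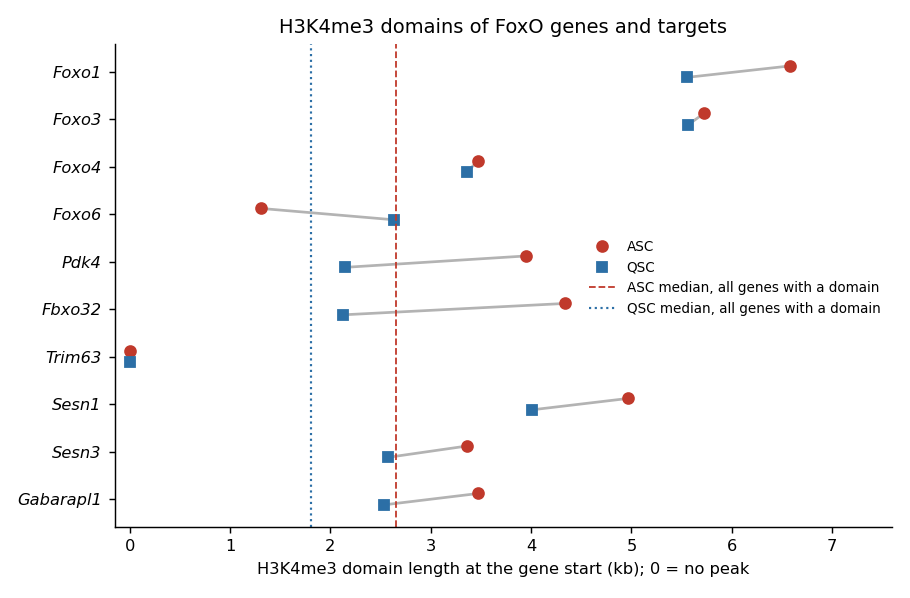
H3K4me3 domain length in kb at the start of each gene in ASC (red circles) and QSC (blue squares), 1 value per pooled list, with the medians over all genes with a domain as dashed (ASC) and dotted (QSC) lines. Foxo1 and Foxo3 are longest in both states, Pdk4 and Fbxo32 are longer in ASC, and Foxo6 is shorter in ASC.

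**Figure D4:**
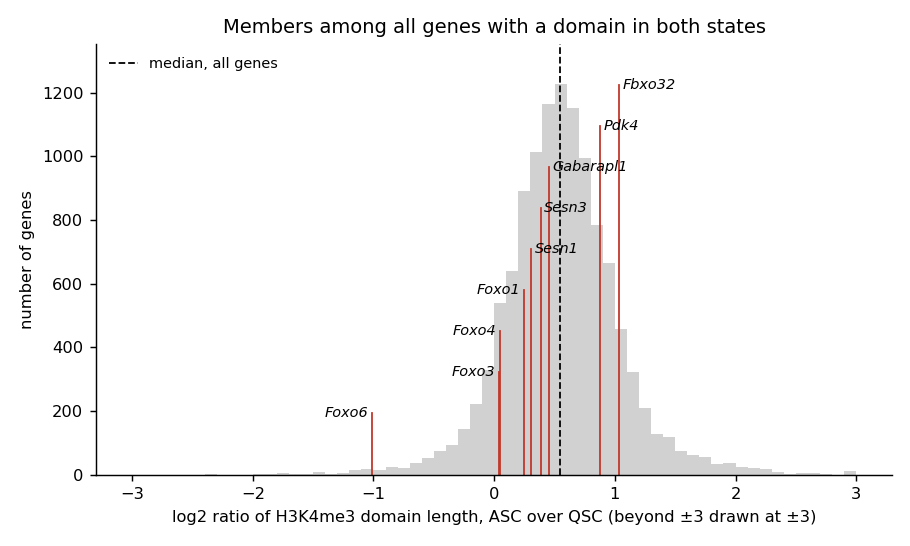
Number of genes by log2 ratio of H3K4me3 domain length, ASC over QSC, for 11755 genes with a domain in both states; red lines mark the 9 members with a domain. Foxo6 lies at -1.01, Foxo3 and Foxo4 near 0, and Pdk4 and Fbxo32 above the median of 0.54.

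H3K27me3 covered the largest shares of the locus at Trim63 and Foxo6, with Gabarapl1 next, in each state. Trim63 encodes MuRF1, the ubiquitin ligase that breaks down sarcomere proteins, and its locus (chromosome 4, record 134315120 to 134329629) was covered over 85.1% in ASC and 53.8% in QSC by broad peaks. In ASC 1 broad peak of 38756 bp (134310250 to 134349005, fold 3.22) covered the whole record. In QSC 6 broad peaks lay in the locus, the longest of 18170 bp with a fold of 2.95, and 57.6% of the record was covered. The first of the 6 (134314068 to 134314262) lay wholly before the record. Both of these long peaks ran into the record of Slc30a2, which lies 13417 bp beyond Trim63. The start window was covered over 2001 bp in ASC and 600 bp in QSC. Narrow H3K27me3 peaks numbered 3 in ASC and 2 in QSC, all inside the record or beyond its far end. H3K27me3 over at least 10% of the locus with no H3K4me3 at the start, as at Trim63, was found at 24.5% of all genes in ASC and 24.4% in QSC.

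Foxo6 was the only member with both marks at the same end, and only in ASC. At the higher-coordinate end, H3K27me3 covered 1162 bp of the window in ASC and 0 bp in QSC, where H3K4me3 was present in both states. Both marks at the same window were found at 9.91% of all genes in ASC and 5.09% in QSC, and in ASC only at 5.56%. The ASC broad peak there (120283988 to 120287422) had a fold of 2.74 and a -log10 q of 2.71, so the call was lost when broad peaks had to reach a fold of 3, or a -log10 q of 5. The ASC narrow list held 2 peaks there, of 967 bp and 990 bp with folds of 5.93 and 4.29 and -log10 q values of 12.9 and 6.74, and 999 bp of the window lay under them. The QSC narrow list had no H3K27me3 peak in the locus, against 5 in ASC. A locus with narrow H3K27me3 in ASC only was found at 10.4% of all genes. Over the locus, broad peaks covered 56.1% in ASC and 28.4% in QSC, and over the record itself 61.3% in ASC and 13.4% in QSC. At the lower-coordinate end the window was covered in both states, over 2001 bp each. Of the H3K4me3 bases in the locus, 1667 of 2752 bp in ASC lay under H3K27me3 broad peaks, and 0 of 4227 bp in QSC.

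Promoter calls for H3K27me3, which required at least 500 bp of the window, went to Foxo6 and Trim63 alone in each state. These 2 of 10 stand beside 30.0% of all genes in ASC and 24.9% in QSC. In QSC the Foxo6 call rested only on the lower-coordinate end, where no H3K4me3 was called in either state. The QSC call of Trim63 rested on 600 bp under peaks on either side of the start, which did not cover the start itself. Neither QSC call remained when q had to be 0.05 or less. By narrow peaks in the locus, Foxo6 and Trim63 were marked in ASC, beside 41.2% of all genes, and Trim63 and Sesn3 in QSC, beside 34.3%. The Sesn3 peak, of 1393 bp with a fold of 4.30, lay upstream of the start (14268278 to 14269670). A narrow peak in QSC only, as there, was found at 3.45% of all genes. A broad peak of lower fold was present in the same place in both states, 4851 bp long in ASC and 7306 bp in QSC.

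No H3K27me3 peak of either list lay in the Foxo4 or Sesn1 locus in either state. Broad peaks lay in 8 of 10 loci in ASC and 7 in QSC, beside 70.4% of all genes in ASC and 72.1% in QSC, and the locus with one in ASC alone was Foxo1, with a single ASC peak of 1762 bp and a fold of 1.43. Of the 13 ASC broad peaks in member loci, 3 had a q of 0.05 or less, at Foxo6 and Trim63. Of the 20 QSC broad peaks 2 did, both at Trim63. Over the whole H3K27me3 broad lists, 8.51% of peaks in ASC and 3.85% in QSC had such a q. At least 10% of the locus was covered at 4 members in ASC (Trim63, Foxo6, Gabarapl1 and Fbxo32) and at 3 in QSC (the same genes without Fbxo32), beside 50.3% of all genes in ASC and 48.4% in QSC. Gabarapl1 had 26.7% in ASC and 18.8% in QSC, and Fbxo32 11.5% in ASC and 5.82% in QSC, in each case from peaks outside the gene record. With equal covered bases in the lists the ASC minus QSC difference was -11.2 percentage points at Gabarapl1 and -2.18 at Pdk4. Pdk4 had 6.12% in ASC and 2.18% in QSC, from peaks on opposite sides of the gene, and Foxo3 2.52% in ASC and 0.354% in QSC. Of 8 members with any broad peak, Sesn3 alone had the lower share in ASC with a flank of 10 kb, 6.95% against 8.58% in QSC. That difference was 0.65 percentage points, higher in ASC, with a flank of 5 kb and 0.37 with 25 kb. The share was higher in ASC at 55.2% of all genes with any.

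**Figure D5:**
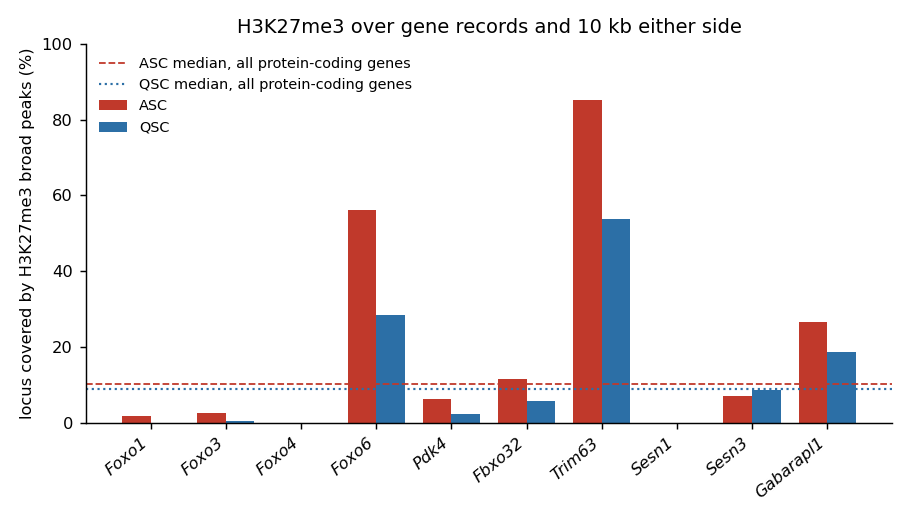
Percent of each locus (gene record plus 10 kb either side) covered by H3K27me3 broad peaks in ASC (red, left) and QSC (blue, right), 1 value per pooled list, with medians over all protein-coding genes as dashed (ASC) and dotted (QSC) lines. Trim63 (85.1% in ASC and 53.8% in QSC) and Foxo6 (56.1% in ASC and 28.4% in QSC) stand well above the medians of 10.2% in ASC and 9.01% in QSC.

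Most of a further list of FoxO pathway genes carried H3K4me3. Of 56 further genes, 29 upstream regulators and cofactors and 27 other reported targets, 54 were called in each state, beside 57.0% of all genes in ASC and 54.4% in QSC. Among those not called was Ywhaz, a 14-3-3 protein that holds FoxO factors in the cytoplasm, which has no listed start in the table and had H3K4me3 peaks elsewhere in its locus in ASC and in QSC. The median log2 ratio of domain length was 0.49 over the upstream genes and 0.28 over the other targets. It was 0.54 over all genes with a domain in both states. All 27 marked upstream genes had the longer domain in ASC, and of the other targets 21 did and 6 had the shorter. Of all genes with a domain in both states, 90.8% had the longer domain in ASC.

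Among these 56 genes, the highest ratios of domain length were those of Cdkn1b, which encodes the cell cycle inhibitor p27 (14786 bp in ASC and 4849 bp in QSC, log2 ratio 1.61), Stk4, a Hippo pathway kinase that phosphorylates FoxO factors (2742 bp in ASC and 1140 bp in QSC, 1.27), and Ep300, an acetyltransferase coactivator (4234 bp in ASC and 2207 bp in QSC, 0.94). The bases covered over the locus gave smaller log2 ratios, 0.56 at Cdkn1b (16138 bp in ASC and 10950 bp in QSC), 0.52 at Stk4 and 0.84 at Ep300. Cdkn1b had 3 narrow peaks in ASC and 5 in QSC, so its domain ratio depends on which peaks were joined. The lowest were those of Notch1, a receptor that maintains quiescence (3534 bp in ASC and 4521 bp in QSC, log2 ratio -0.36), Gadd45a, a stress response gene (3199 bp in ASC and 3752 bp in QSC, -0.23), and Ulk1, the kinase that starts autophagy (2572 bp in ASC and 2978 bp in QSC, -0.21). For Ulk1 the covered bases gave 0.05.

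H3K27me3 was called at the start of 3 of the 56 pathway genes in ASC and 1 in QSC, beside 30.0% of all genes in ASC and 24.9% in QSC. Those in ASC were Sgk1, a kinase related to Akt, Cdkn1a, which encodes the inhibitor p21, and Bcl2l11, which encodes the death protein Bim. The gene in QSC was Pdpk1, the kinase that activates Akt. A call in ASC only was found at 7.68% of all genes and in QSC only at 2.56%. At Bcl2l11 the mark covered 558 bp of the window of the upstream start in ASC and 167 bp in QSC, and H3K4me3 was present there in both states (domain of 4385 bp in ASC and 3461 bp in QSC). Over its whole locus the share covered was lower in ASC, 24.3% against 38.9% in QSC. At Sgk1 it covered 718 bp in ASC and 0 bp in QSC at the first of 6 listed starts, beside an H3K4me3 domain of 1057 bp in ASC and 790 bp in QSC. The share of the Sgk1 locus was 1.19% in ASC and 1.77% in QSC. The main Sgk1 domain, of 7963 bp in ASC and 7349 bp in QSC, touched the windows of starts 4, 5 and 6, where H3K27me3 covered 0 bp, and starts 2 and 3 had neither mark. At Cdkn1a H3K27me3 covered 1459 bp in ASC and 0 bp in QSC at the upstream start, which had no H3K4me3. The downstream start had an H3K4me3 domain of 4643 bp in ASC and 2642 bp in QSC. H3K27me3 covered 286 bp of its window in ASC, below the 500 bp needed for a call, and 0 bp in QSC. The share of the Cdkn1a locus was 23.1% in ASC and 4.51% in QSC. At Pdpk1 H3K27me3 covered 0 bp in ASC and 552 bp in QSC at the upstream start. H3K4me3 was called at that start in ASC only, with a domain of 611 bp. The downstream start of Pdpk1 had a domain of 3090 bp in ASC and 2185 bp in QSC, and 0 bp of H3K27me3 in each. No call here rested on a broad peak with a fold of 3 or more.

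Other genes with a pattern like that of each FoxO factor were found by Euclidean distance over 4 values, the log2 of the H3K4me3 domain length and of the H3K27me3 bases in the locus in ASC and in QSC, each with 100 bp added. The nearest to Foxo1 were Fzd4, Zbtb7a and Stt3b, at distances of 0.21, 0.25 and 0.31. Actg1, Sox4 and Csnk1d were nearest to Foxo3 (0.41, 0.44 and 0.44). Fasn, Mesd and Tlnrd1 were nearest to Foxo4 (0.03 each), and Scarf2, Col6a2 and Ptprf to Foxo6 (0.48, 0.67 and 0.70). Mesd and Tlnrd1 share a domain. The measure only ranks likeness over the pooled lists.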

How the data were processed

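Libraries were made by ChIPmentation, in which antibody-bound DNA is tagmented, and sequenced as read pairs of 75 bases, per the labels' protocols. The submitters' processing notes name MACS2 2.1.1, Bowtie2 2.3.2, bedtools 2.26.0, Trimmomatic 0.36, SAMtools 1.3, Picard 2.9.2 and bcl2fastq 2.19, with build mm10. Settings were not given in the sources used. The deposited lists hold, per peak, the authors' linear ratio (fold enrichment over background), the -log10 of a p-value (used to rank peaks for equal list sizes), that of a q-value, and a display score, which was not used. Median -log10 q in the deposited H3K27me3 broad lists was 0.38 for ASC and 0.42 for QSC. Depth per sample is unknown, so no interval is given.

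Peaks were merged and intersected with RefSeq gene records (GRCm38.p6) in Python 3.11.15 with pandas 2.3.3, by code tested on simulated data. RefSeq starts were used for 17492 genes, and both record ends for 4395 with none listed. Members and gene lists were chosen with earlier results of these data known. Genes named from the pathway list were those whose calls differed between states and those with the 3 highest and 3 lowest ratios of domain length. Alternatives were stricter thresholds, equal list sizes, other windows, flanks, overlaps and gaps, and the other list of each mark. A q of at most 0.05 was added after seeing the data. A gene of the pathway list is not reported here by name.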

Additional observations from a re-analysis of the deposited data

How the results depend on the processing

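No paired analysis was possible because each list pools the replicates of its group, and leaving out a replicate was not possible for the same reason. The 9 H3K4me3 calls in each state and the 54 pathway calls were within 1.5 times those numbers under every alternative run for them. Equal covered bases was not among those alternatives. H3K4me3 broad lists, of 29297 peaks in ASC and 184538 in QSC, gave a median log2 ratio of domain length of 0.030 in place of 0.31, and of coverage -0.45 in place of 0.24, with -0.23 at the Fbxo32 locus in place of 1.03. The median for coverage was 0.35 with equal covered bases, 0.10 with no flank and 0.38 with a flank of 25 kb. With equal covered bases, Foxo4, Foxo6 and Sesn1 gave no ratio of domain length or of coverage. No H3K4me3 narrow peak was left in their loci in the shortened ASC list, so their ASC calls would be lost there. The H3K27me3 share of the locus was lower in ASC at Gabarapl1 and Pdk4 with equal covered bases, by -11.2 and -2.18 percentage points, and higher in ASC without that setting (7.90 and 3.94).

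H3K27me3 calls rest on broad peaks, and most peaks of the whole broad lists are weak. A q of 0.05 or less was reached by 8.51% of them in ASC and 3.85% in QSC. The alternatives were run for members and pathway genes only, so no share of all genes stands beside the counts that follow. A stricter -log10 q (5 or more) left 0 promoter calls of members in ASC and 0 in QSC, where there had been 2 in each. A fold of 3 or more left 1 in ASC (Trim63) and 0 in QSC, and narrow lists gave 1 in ASC (Foxo6) and 0 in QSC. In QSC they were 0 when q had to be 0.05 or less, and 1 with a window of 500 bp or an overlap of 1000 bp. Loci covered over at least 10% (4 in ASC and 3 in QSC) numbered 0 in both states under the stricter -log10 q, 1 in ASC and 0 in QSC under the fold limit, 2 in ASC and 1 in QSC under the q limit, and 2 in ASC and 0 in QSC by narrow lists. They were 2 in ASC and 2 in QSC with no flank, and 5 in ASC and 5 in QSC with a flank of 25 kb. Pathway calls (3 in ASC and 1 in QSC) numbered 0 in both states under the stricter -log10 q, under the fold limit and by narrow lists. The cause of these differences was not tested.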
